A study of Mus musculus and synthetic construct with 21 samples.

Results

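Synthetic arrays that combined an AP-1 motif with a motif of another transcription factor were examined in a massively parallel reporter assay in 3T3-L1 cells, a mouse preadipocyte line. In this assay each oligo is cloned beside a reporter that carries a barcode, and its enhancer activity is read as barcode RNA relative to barcode DNA in the plasmid library. The oligos came from pool 7, whose names give 1 or 2 motif names, 1 of 3 surrounding sequences, a number of copies (2, 4 or 6) and an arrangement (1, 2 or 3). An array was included when 1 of its names was fos, jun, fra1 or bach1 and the other was none of these and not ppar. This gave 1080 of the 3243 oligos of the pool, made up of 40 motif pairs with 27 arrays each. The comparison arrays were 108 in which an AP-1 name stood with itself, 270 in which a partner stood with itself, and 3 elements named only for a surrounding sequence, called background elements below. All values came from 1 RNA library and 1 plasmid library. The RNA was collected 16 h after transfection, from cells induced by 1 µM dexamethasone, 1.7 µM insulin and 0.5 mM IBMX. With no replicate library there was no test. Every SD below is over arrays, which share both libraries and are not replicates.

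AP-1 is a family of dimers of basic leucine zipper (bZIP) proteins, chiefly of the FOS and JUN families, that bind a short palindromic motif and often act at enhancers opened early in adipocyte differentiation. FRA1 (FOSL1) is a FOS family member that pairs with JUN proteins. BACH1 is a related bZIP protein that pairs with small MAF proteins, binds a motif containing an AP-1-like core, and is best known as a repressor. Among the 10 partners, atf3 names an ATF/CREB family bZIP protein that can pair with JUN, and lxr names the oxysterol-activated nuclear receptor. The names foxo4 and foxd1 refer to forkhead proteins, myc to a helix-loop-helix protein of E-box sites, and cebp to the C/EBP family of adipogenesis. The names vbp and e4bp4 (NFIL3) refer to bZIP proteins that recognise sites similar to each other, and ap2 and myb to factors of other DNA-binding folds. A motif name states which site was designed, not which protein bound it in these cells.

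The arrays were set in 3 mouse sequences whose names carry a 16-base DR1-like site, a pair of hexamers of the nuclear receptor type separated by 1 base. These 3 sequences are shown because each array was compared only with arrays in the same one. Capitals mark the hexamers, and coordinates are of mm9.
chromosome 13 background: tgaAGGTCAgAGTTTA
chromosome 15 background: agtAGGACAgGGGTTA
chromosome 9 background: agtGGGGCAgAGGGCA
They lie at chr13:46069371-46069386 on the plus strand, chr15:67824069-67824084 on the minus strand and chr9:66727486-66727501 on the plus strand. Against the consensus hexamer, the first hexamer had 0 mismatches on chromosome 13, 1 on chromosome 15 and 2 on chromosome 9, and the second had 2, 2 and 1. The names do not say whether the 16 bases remain in the arrays, which motif sequence each name stands for, how arrangements 1 to 3 differ, or whether the number of copies counts both motifs together. The array sequences were not used here, and no gene annotation of mm9 was used.

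Activity was expressed as log2 of an oligo's share of the RNA library over its share of the plasmid library, so 0 is the ratio of the pool as a whole. A difference of 1 on this scale is 2-fold. The RNA library held 9806531 counts and the plasmid library 10179019. The median mixed AP-1 array had 1994 RNA counts and 3289 plasmid counts over 148 barcodes, and the median counting error of a difference between arrays was 0.057. Counts were uneven between the surrounding sequences, with a median of 1023.5 plasmid counts on chromosome 15 against 3950.5 on chromosome 13 and 3994.5 on chromosome 9. Of the 52 mixed arrays with fewer than 10 RNA counts, 46 stood on chromosome 15. All 4 arrays below the minimum of 50 plasmid counts were there too and were lxr arrays, which left 1076 mixed arrays. Results are therefore also given for chromosomes 13 and 9 alone or for arrays with at least 500 plasmid counts. The background elements had activities of -0.97 on chromosome 13 (21377 RNA and 43479 plasmid counts), -2.59 on chromosome 15 (1194 and 7444) and -1.28 on chromosome 9 (19901 and 50127). The chromosome 15 element was thus the least active and the least deeply counted of the 3.

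The same-name arrays set the scale. By its mean over the background elements, each of the 4 AP-1 names stood above each of the 10 partners. The mean difference was 2.20 ± 1.28 for bach1, 1.93 ± 1.52 for jun, 1.89 ± 1.91 for fra1 and 1.85 ± 1.59 for fos (SD, n = 27 arrays each). These 4 means differed from one another by less than the spread among arrays. For fos, jun and fra1 the mean was higher at more copies: the mean for fos was 0.57 at 2 copies, 1.54 at 4 and 3.44 at 6, that for jun 0.18, 2.30 and 3.31, and that for fra1 -0.09, 2.35 and 3.40. The bach1 arrays began higher, at 1.34, and reached 2.43 and 2.82. That early level came mainly from chromosome 15, where the 3 bach1 arrays of 2 copies averaged 2.94, against 0.45 on chromosome 13 and 0.61 on chromosome 9. The fos mean at 2 copies also came from chromosome 15, at 2.20, against -0.29 on chromosome 13 and -0.18 on chromosome 9.

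Averaged over all copies, partners alone were near or below the background elements. The highest means were 0.33 for e4bp4, 0.27 for atf3 and 0.20 for lxr (n = 26), followed by 0.03 for vbp. The means of myc (-0.52, n = 26), foxo4 (-0.55), foxd1 (-0.85) and cebp (-1.03) were below 0. The lowest were ap2 at -1.62 (n = 26) and myb at -2.10 ± 3.28, where n is 27 unless given. Same-name arrays of myb were poorly represented, with a median of 298 plasmid counts and 18 of 27 arrays under 500, and the corresponding numbers were 1233 and 10 of 27 for ap2. The levels of these 2 partners alone therefore rest on few counts.

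Arrays that mixed AP-1 with a partner were, on average, less active than the AP-1 motif alone in each of the 40 pairs. Matched on surrounding sequence, copies and arrangement, the mixed array minus the same-name AP-1 array averaged -1.25 ± 2.02 (SD, n = 1076 arrays, median -1.01). The mixed array was lower in 836 of them, or 77.7%. Over all mixed arrays of the pool, each set against both of its same-name arrays, the share was 50.1%. That pool share takes in the stronger and the weaker name of each array alike. Here only the AP-1 name was used, which by its mean was the stronger, so the 2 shares are not like measures. The same holds for the 2-fold shares. The mixed array was lower by more than 2-fold in 543, or 50.5%, against 26.9% in the pool. It was higher by more than 2-fold in 71, or 6.60%, against 27.7%. All 40 pair means were below 0, and all 40 were again below 0 on chromosomes 13 and 9 alone, where the mean over arrays was -0.98 ± 1.39 (n = 720, median -0.94).

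Against the partner alone the direction was the opposite. The mixed array minus the same-name partner array averaged 1.30 ± 2.69 (n = 1066, median 0.97) and was above 0 in 776 arrays, or 72.8%, against 49.9% in the pool. That pool share again counts each mixed array against both of its same-name arrays, so it is not a like measure. All 40 pair means were above 0. They ran from 0.39 for fos with e4bp4 to 2.36 for fra1 with ap2. The pairs at the top, fra1 with ap2, bach1 with myb (2.36) and fra1 with myb (2.34), were those of the partners that were lowest alone. Of the 27 same-name arrays of each, 8 with ap2 and 9 with myb had fewer than 10 RNA counts. With at least 500 plasmid counts required the 3 means were 0.65, 1.74 and 1.06. Relative to the background elements the mixed arrays averaged 0.72 ± 2.01 (median 0.86). They were more than 2-fold above them in 492 arrays, or 45.7%, where 39.3% of all arrays in the pool were, and more than 2-fold below in 136, or 12.6%, against 16.8%.

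Mixed arrays were also set against the midpoint of their 2 same-name arrays on the log2 scale. The mean of mixed minus midpoint was 0.03 ± 1.94 (n = 1066, median 0.11), which averages departures of opposite sign. It was -0.10 at 2 copies, where 186 of 359 arrays were above the midpoint, -0.26 at 4 copies (162 of 351) and 0.43 at 6 copies (230 of 356, median 0.26). At 6 copies it was 0.01 for fos (43 of 89 above), 0.50 for jun, 0.35 for fra1 and 0.87 for bach1 (73 of 89). By partner it ranged from -0.27 for e4bp4, 0.02 for lxr and 0.08 for cebp to 1.11 for foxd1 and 1.30 for ap2. No pool share above the midpoint was computed. Single arrays departed widely, with 232, or 21.8%, more than 2-fold above (24.7% in the pool) and 195, or 18.3%, more than 2-fold below (18.4% in the pool). These shares were near the pool's. The position between the 2 same-name arrays differed with copies. At 2 copies 120 of 359 arrays, or 33.4%, lay between them, at 4 copies 203 of 351, or 57.8%, and at 6 copies 288 of 356, or 80.9%. Over all copies 57.3% did, against 48.9% for all mixed arrays of the pool, and the pool's share at 6 copies was 60.2%. No pool share was computed at 2 or 4 copies. At 6 copies 39 mixed AP-1 arrays lay above both same-name arrays and 29 below both. Over all copies 18.9% lay above both and 23.7% below both, against 25.6% and 25.5% in the pool. The 2 same-name arrays also stood further apart at more copies. The mixed array differed from the AP-1 and partner arrays by means of -0.68 and 0.48 at 2 copies. These were -1.68 and 1.16 at 4 copies and -1.39 and 2.24 at 6. The part of this distance in the share between was not tested. Of the 120 arrays of 6 copies on chromosome 13, 106 lay between, as did 99 of 116 on chromosome 9 and 83 of 120 on chromosome 15.

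Mixed arrays with more copies were more active. Their mean over the background element was -0.17 at 2 copies, 0.46 at 4 and 1.86 at 6, where 334 of 360 were above it. The share of all pool arrays of 6 copies above it was not computed, so this count is not set against the pool. The gap to the AP-1 motif alone was -0.68 at 2 copies, where 214 of 359 were lower, -1.68 at 4 (302 of 357) and -1.39 at 6 (320 of 360). On chromosomes 13 and 9 alone the gap widened at each step, from -0.23 to -1.22 to -1.48, and at 6 copies 227 of 240 mixed arrays were below the AP-1 motif. Across arrangements 1, 2 and 3 the median gap over all mixed arrays was -0.98, -1.05 and -1.00, which are close beside the SD among arrays. By name the medians were -1.03, -1.04 and -1.03 for fos and -1.17, -1.05 and -0.93 for jun. They were -0.80, -1.34 and -1.00 for fra1 and -1.04, -0.83 and -1.08 for bach1. The fos means were less even than its medians, at -1.87, -1.37 and -1.11.

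If a mixed array of 4 copies holds 2 of each motif, which the names do not state, the fitting comparison is with 2 copies of AP-1 alone. The mixed arrays of 4 copies averaged -0.03 relative to same-name AP-1 arrays of 2 copies (median 0.41) and were higher in 230 of 357. This mean joins AP-1 names of opposite sign, at -0.83 for fos (median 0.14) and -0.28 for bach1 (median 0.20). It was 0.26 for jun and 0.74 for fra1. No value without chromosome 15, where fos and bach1 alone stood high at 2 copies, was computed for this comparison. Of the 40 pairs, 18 had a mean above 0 and 31 a median above 0 in this comparison. The difference was 1.13 for atf3, higher in 29 of 36 arrays, and 0.77 for lxr, higher in 28 of 33. It was 0.65 for vbp, 0.28 for foxo4, 0.27 for e4bp4 and 0.05 for myc. The mean was below 0 for ap2 (-0.45, median 0.22), foxd1 (-0.57, median 0.12), cebp (-0.60) and myb (-1.73, median -0.70). Of 36 arrays each, 21 were higher than the shorter AP-1 array for ap2, 19 for foxd1, 18 for cebp and 12 for myb, so for ap2 and foxd1 the mean and most arrays pointed in opposite directions.

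The 4 AP-1 names differed in how the gap changed with copies. For fos it was -0.63 at 2 copies, -1.79 at 4 and -1.92 at 6. For jun it was -0.41, -1.83 and -1.35, and for fra1 -0.14, -1.69 and -1.53. For bach1 the order was reversed, with -1.53 at 2 copies, -1.39 at 4 and -0.75 at 6. At 6 copies the mixed array was below the AP-1 array in 86 of 90 cases for fos, 84 for jun and 84 for fra1, and in 66 for bach1. Without chromosome 15 the bach1 values were -0.73, -1.27 and -1.10, so its reversed order was not present on chromosomes 13 and 9. For fos on those 2 chromosomes the mean gap at 2 copies was 0.29, above 0, and at 6 copies it was -2.08. Relative to the background element, fos alone at 2 copies averaged -0.29 on chromosome 13 and -0.18 on chromosome 9.

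Ranked by mean gap, the partners formed an order whose ends were more alike among the 4 AP-1 names than its middle. By mean gap, atf3 ranked 2 of 10 with fos and 1 with jun, fra1 and bach1. The rank of myb was 9 with fra1 and 10 with the others. By contrast, myc ranked 1 with fos, 4 with jun, 5 with fra1 and 8 with bach1. For foxd1 the ranks were 8, 7, 8 and 4. With at least 500 plasmid counts, in the same order of AP-1 names, myb ranked 8, 10, 7 and 8. Those of myc were then 4, 2, 3 and 2, so the contrast between myb and myc was lost. By median atf3 ranked 2, 2, 3 and 2, and myb 10, 10, 9 and 7. The mean gaps given next pool the 4 names. Because all partners of an AP-1 name were compared with the same 27 arrays, ranking by this gap is in effect ranking by the level of the mixed arrays. At the top were atf3, with a mean gap of -0.52 ± 1.21 (n = 108, lower in 77), and lxr, with -0.74 ± 1.92 (n = 104, lower in 71). In the middle were myc (-0.97 ± 1.98), foxo4 (-0.99 ± 1.33), vbp (-1.00 ± 1.49) and e4bp4 (-1.02 ± 1.65), which differed by far less than the spread among arrays. Below them were foxd1 (-1.50 ± 2.20), cebp (-1.61 ± 1.76) and ap2 (-1.69 ± 2.22), and last was myb (-2.41 ± 3.12, lower in 87 of 108). Each SD exceeded the distance between neighbours in this order. Pairs were also grouped by partner family, with atf3 as the only bZIP name outside the C/EBP and PAR bZIP group. The median pair mean was -0.49 for atf3 and -0.73 for the nuclear receptor lxr. It was -1.13 for the 12 pairs of C/EBP and PAR bZIP names (cebp, vbp and e4bp4), -1.17 for the 8 forkhead pairs and -1.61 for the 12 pairs with myc, ap2 and myb.

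Depth moved with the lowest place. Mixed arrays with myb had a median of 1304.5 plasmid counts, 24 of 108 were under 500, and 12 had 0 RNA counts. Arrays with atf3 had a median of 4018.5 plasmid counts, with 4 under 500 and 0 at 0 RNA counts. With at least 500 plasmid counts required, the mean gap of myb was -1.48 (n = 84), beside -1.50 for cebp and -1.54 for ap2, so myb no longer stood apart. The other end changed order as well, with lxr at -0.31 and atf3 at -0.55 under that minimum, followed by myc at -0.59. On chromosomes 13 and 9 alone lxr was first (-0.42 ± 0.94), atf3 second (-0.70 ± 0.92), and myb last (-1.95 ± 2.46), with cebp (-1.23), foxd1 (-1.18) and ap2 (-1.14) before it.

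The fos arrays covered the widest range of pair means. The partners that left them highest were myc, at -0.65 ± 1.38 below fos alone, and atf3, at -0.68 ± 1.20. Those that left them lowest were ap2, at -2.18 ± 2.28, and myb, at -3.24 ± 3.49 (n = 27 each). For fos with myb the median was -1.98, and the mean with at least 500 plasmid counts was -1.54. At 6 copies fos with ap2 averaged -3.09 and was lower than fos alone in 9 of 9 arrays. All 6 of its arrays on chromosomes 13 and 9 lay between -4.05 and -1.93. On those chromosomes fos with lxr ranked first of the 10, with a mean of -0.32 and 9 of 18 arrays below fos alone.

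For jun the highest partners were atf3, at -0.43 ± 1.00, and lxr, at -0.45 ± 1.79 (n = 26), and the lowest were ap2, at -1.89 ± 2.34, and myb, at -2.82 ± 2.91. The jun arrays of 6 copies on chromosome 9, chosen as an example after the values were seen, show the scale of these differences. Arrays of jun alone had activities of 2.49, 1.64 and 1.95 in arrangements 1, 2 and 3, from 34337, 16488 and 24488 RNA counts. With atf3 the values were 1.10, 0.55 and 0.32, and with lxr 0.22, 0.42 and 0.35. With ap2 they were -0.39, -1.96 and 0.16, and with myb -0.29, -1.98 and 0.66, the last from 870, 267 and 1238 RNA counts. Every mixed array of these 4 partners was below every array of jun alone, and all but the second ap2 and myb arrays were above the background element at -1.28. On chromosome 13 the jun arrays had activities of 1.79, 2.07 and 1.82, those with lxr 0.66, 0.62 and 0.88, and those with atf3 1.42, 0.58 and 0.24. Mixed jun arrays with ap2 there were at 0.18, -0.65 and 0.00. The myb arrays were at -6.11, 0.03 and 1.24, where the first had 11 RNA counts from 858 plasmid counts (95% counting interval of its activity -7.24 to -5.38).

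For fra1 the highest partners were again atf3, at -0.42 ± 1.52, and lxr, at -0.65 ± 1.78 (n = 26), and the lowest were myb, at -1.64 ± 3.03, and cebp, at -1.93 ± 2.23. On chromosomes 13 and 9 fra1 with cebp was at -1.26 and ranked 9 of 10. For bach1 the highest were atf3, at -0.55 ± 1.09, and lxr, at -0.81 ± 2.01 (n = 25). The lowest were ap2, at -1.58 ± 2.11, and myb, at -1.94 ± 2.94. By median, however, cebp ranked 10 with bach1, foxo4 9, ap2 8 and myb 7. With at least 500 plasmid counts myb ranked 8 by mean with bach1 and 7 with fra1. Without chromosome 15, bach1 with atf3 was at -0.98 and ranked 4, while lxr was first with each of the 4 AP-1 names. The place of atf3 at the top thus drew on chromosome 15, where its mean gap was -0.15 and lxr's was -1.46. The medians there were -0.32 for atf3 and -0.80 for lxr, and the SDs 1.59 and 3.06. Over all 3 backgrounds, 14 of 108 lxr arrays had under 500 plasmid counts and 8 had 0 RNA counts. The part of low counts in the lxr mean was not tested.

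Arrays with myc changed place most with copies. Their mean gap to AP-1 alone was -0.95 at 2 copies, where myc ranked 8 of 10, -1.61 at 4 copies and -0.36 at 6 copies, where it ranked first. At 6 copies the myc arrays also stood highest above the background elements, at 2.88, compared with 2.36 for atf3 and 2.19 for lxr. On chromosomes 13 and 9 myc was likewise first at 6 copies, with a gap of -0.40 ± 0.80 (n = 24, lower in 19) and all 24 arrays above the background element. At 6 copies 9 of 36 myc arrays lay above both same-name arrays, 25 between and 2 below. For cebp the counts were 1 above, 30 between and 5 below. The share above both at 6 copies was 25.0% for myc and 11.0% for all mixed AP-1 arrays. For the pool this share was computed over all copies only, at 25.6%, so the myc count is not set against a like share. The myc same-name arrays also moved with copies, from -2.10 at 2 copies to 0.99 at 6, and their plasmid counts were low, with 9 of 27 under 500.

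Relative to the midpoint, the highest of the 40 pairs were fra1 with ap2 (0.62, n = 26), fos with myc (0.53) and jun with foxo4 (0.50). The lowest were fos with foxd1 (-0.52), jun with myb (-0.81) and fos with myb (-1.27 ± 2.98, median -0.48). Under at least 1 alternative 5 of these 6 pairs crossed the midpoint, all but jun with foxo4. The value of fos with myb was 0.24 over the 9 arrays left when at least 500 plasmid counts were required of the mixed and both same-name arrays. That of jun with myb was 0.12 without chromosome 15, that of fos with foxd1 0.15 without 4 copies, and that of fra1 with ap2 -0.35 from summed counts. At 6 copies on chromosomes 13 and 9, mean differences from the midpoint ran from -0.14 for myb to 0.48 for foxo4 in 8 partners, and were 1.24 for foxd1 and 1.01 for ap2. On chromosome 9, same-name arrays of 6 copies with 0 RNA counts occurred for foxd1, ap2 and myb.

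Relative to the background element, 5 pairs averaged below it: fos with myb (-1.39), jun with myb (-0.89), fos with ap2 (-0.33), fra1 with cebp (-0.05) and fos with foxd1 (-0.02). Each of these 5 means was above 0 under at least 1 alternative: from summed counts they were 0.10, 0.12, 0.12, 0.76 and 0.54 in the same order. The highest were bach1 with atf3 (1.65), jun with atf3 (1.50), fra1 with atf3 (1.46) and jun with lxr (1.37). The lead of atf3 drew on chromosome 15, where its arrays averaged 2.62, against 0.78 on chromosome 13 and 0.93 on chromosome 9. On chromosomes 13 and 9 alone lxr averaged 1.15 and atf3 0.86, and jun with lxr (1.24) stood above jun with atf3 (1.03). At 6 copies the highest pair was fra1 with myc, at 3.19. The lowest was fos with myb, at -1.45, with a median of -0.28 and 4 of 9 arrays above the background element. Its mean included arrays with 0 RNA counts, and over the 6 arrays with at least 500 plasmid counts it was 0.27, with 4 above.

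Single arrays at the extremes came mostly from the thinly represented background or from arrays with few plasmid counts. The 3 highest relative to the background element were all on chromosome 15: bach1 with foxd1 at 4 copies in arrangement 3 (7.04, from 22435 RNA and 1062 plasmid counts), fra1 with atf3 at 4 copies in arrangement 1 (6.55, from 12925 and 860), and fos with foxo4 at 6 copies in arrangement 2 (6.37, from 11963 and 898). The first was also 4.00 above bach1 alone. The 3 lowest all had 0 RNA counts. With 3 counts as the limit that a count of 0 allows, fos with foxd1 on chromosome 9 (4 copies, arrangement 3, 779 plasmid counts) was at least 103-fold lower than its background element. Likewise fra1 with myb on chromosome 13 (4 copies, arrangement 2, 418 plasmid counts) was at least 68.5-fold lower, and bach1 with myb on chromosome 9 (6 copies, arrangement 3, 488 plasmid counts) at least 64.6-fold lower.

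The 3 arrays highest above their own AP-1 array were 2-copy arrays of arrangement 1 on chromosome 15. They were jun with lxr (5.18, with 2118 RNA and 599 plasmid counts against 66 and 685 for jun alone), fra1 with myb (5.11, with 1713 and 1207 against 59 and 1457 for fra1 alone) and fra1 with lxr (4.65, with 668 and 647). The latter pair shared the same fra1 array. The 3 lowest had 0 RNA counts and 6 copies. They were fos with myb on chromosome 9 in arrangement 1 (418 plasmid counts, at least 889-fold lower than fos alone), bach1 with myb on chromosome 9 in arrangement 3 (488, at least 813-fold lower) and fos with myb on chromosome 15 in arrangement 2 (424, at least 689-fold lower). Of all 36 mixed arrays with 0 RNA counts, 31 had fewer than 500 plasmid counts, and the largest plasmid count among them was 1135. The part of plasmid representation in these low values was not tested. Intervals and limits cover counting error only.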

How the data were processed

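The authors deposited raw counts per oligo, summed over barcodes per the series' design text, for 1 RNA and 1 plasmid library of pool 7. The submitters' processing notes name Bowtie2 2.1.0 and mm9. The counting tool is not given in the sources used here. No sample column was left unused (0). Activity was computed as log2 of RNA over plasmid counts, adding a pseudocount of 1 to each and dividing by the library's total, for oligos with at least 50 plasmid counts. Differences were matched on surrounding sequence, copies and arrangement. No test was run, since no library was replicated. Members, lists and alternatives were chosen with earlier results of these data known. Named were the 2 highest and 2 lowest partners per AP-1 name, the 3 highest and lowest pairs by midpoint, and the 3 highest and lowest arrays by 2 measures, and same-name levels. The names vbp, e4bp4, foxd1 and foxo4 were placed in families after the names were seen. Scripts (Python 3.11.15, pandas 2.3.3, numpy 2.4.6) were tested on simulated data.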

Additional observations from a re-analysis of the deposited data

How the results depend on the processing

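All 40 pairs kept a mean below their AP-1 array under each alternative that compared equal copies, 2 of 40 did not stay above the partner array under all of them, and 33 changed sides of the midpoint and 14 of the background element under at least 1 alternative. No paired analysis was possible because each kind of library was made once. Each pair has 1 order of names, so the orders could not be compared, and scaling to the median array cancels in every difference. The cause of the shifts was not tested. Low plasmid counts limit chromosome 15 and myb most.

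Means over all mixed arrays minus AP-1, partner, midpoint and background, in that order, moved as follows. A pseudocount of 0.5 gave -1.28, 1.36 and, for background, 0.68, and a pseudocount of 5 gave -1.15, 1.12, -0.013 and 0.81. A minimum of 500 plasmid counts gave -1.01, 0.92, 0.00292 and 0.89. Medians were -1.01, 0.97, 0.11 and 0.86, and ratios of summed counts -0.99, 0.87, -0.053 and 1.21. Without chromosome 13 the values were -1.39, 1.51, 0.064 and 0.89, without chromosome 15 -0.98, 1.09, 0.058 and 0.58, and without chromosome 9 -1.37, -0.037 (midpoint) and 0.67. Without 2 copies they were -1.53, 1.71, 0.091 and 1.16, without 4 copies -1.03, 1.36, 0.17 and 0.84, and without 6 copies -1.18, 0.82, -0.17 and 0.14. Alternatives chosen after seeing the data gave -0.89, 0.83 and 0.91 (background) with at least 1000 plasmid counts, -1.20, 1.20, 0.00281 and 0.76 with arrays of 0 RNA counts set to 3 counts, and -1.12, 1.26, 0.074 and 0.85 without myb. Mixed arrays of 4 copies against AP-1 arrays of 2 copies gave -0.028.

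The number of pairs below the partner array (0) became 2 with at least 500 plasmid counts, 1 with summed counts and 1 without 6 copies. The number below the midpoint (17) became 26 without 6 copies. The number below background (5) became 3 with a pseudocount of 5, with medians, without 4 copies, with at least 1000 plasmid counts, with 0 set to 3 counts and without myb, 2 without 2 copies, 0 with summed counts and 14 without 6 copies. Every pair mean past 2-fold that changed sign is given next, while pair means nearer 0 that changed sign are included in the counts above. These were fos with ap2 minus the partner to -0.014 with at least 500 plasmid counts and -0.20 with summed counts, fos with myb minus the midpoint to 0.24 and 0.17 with at least 500 and 1000 plasmid counts, and fos with myb minus background to 0.10 with summed counts. Against AP-1 arrays of 2 copies, mixed arrays of 4 copies had a mean above 0 in 18 of 40 pairs, of which those past 2-fold below 0 at equal copies were jun with foxd1 (0.18), fra1 with myc (1.09), fra1 with e4bp4 (1.11), fra1 with ap2 (0.69) and bach1 with foxo4 (0.014).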
